A study of Mus musculus with 15 samples.

Results

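Bile acid synthesis and its control by the receptor FXR were followed through 10 genes chosen by name for their place in the pathway: Cyp7a1, Cyp8b1, Cyp27a1, Cyp7b1, Hsd3b7, Akr1d1, Baat, Slc27a5, Nr1h4 and Nr0b2. They were found by symbol among 57132 genes of a table of raw read counts from mouse liver, and each matched 1 row. Of the 10, 9 passed the filter on low counts that left 18181 genes for testing. The remaining gene, Hsd3b7, is listed at 0 counts in every library. The livers were those of male mice of the inbred strain C57BL/6J, aged 8 weeks at the start. Chow mice ate a standard diet for 18 weeks and are represented by 4 livers. The mice of the Vehicle and SR9009 groups, with 5 livers each, were kept for the same 18 weeks on a high-fat diet with cholesterol that lacks choline and has a modified amino acid content, and that produces a fatty, inflamed and fibrotic liver. During the last 6 weeks these mice were injected daily into the peritoneum, either with the vehicle (15% Kolliphor in saline) or with SR9009 at 100 mg/kg per day, an agonist of the circadian repressors REV-ERB alpha and beta. No injection is described for Chow mice, so diet and injection cannot be told apart in any comparison with Chow. The hour of collection is not in the labels.

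Bile acids are made from cholesterol in hepatocytes. In the classic route CYP7A1 hydroxylates the sterol ring first and sets the rate, and in the alternative route the mitochondrial CYP27A1 oxidizes the side chain and CYP7B1 then hydroxylates the ring. HSD3B7 and AKR1D1 modify the ring in both routes, CYP8B1 adds the hydroxyl group that makes cholic acid, and the products are activated by the acyl-CoA synthetase encoded by Slc27a5 and joined to taurine or glycine by BAAT. Bile acids activate FXR, the nuclear receptor encoded by Nr1h4, which induces Nr0b2, whose product SHP represses Cyp7a1 and Cyp8b1. Transcription of Cyp7a1 is also known to vary over the day and to respond to clock proteins, REV-ERB alpha among them.

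Promoter sequences were taken from RefSeq for GRCm38.p6, as the 250 bases before each gene's start, and 6 of the 10 genes had one. Those of Cyp7a1, Cyp7b1, Baat and Slc27a5 were missing and were not searched. The 3 printed here belong to the FXR target Nr0b2, to Cyp8b1 and to Akr1d1, and show which short recognition sequences of liver nuclear receptors these genes carry next to the start. Capitals mark exact matches to any of 7 short motifs searched on both strands.
Nr0b2, chr4:133553126-133553375, plus strand: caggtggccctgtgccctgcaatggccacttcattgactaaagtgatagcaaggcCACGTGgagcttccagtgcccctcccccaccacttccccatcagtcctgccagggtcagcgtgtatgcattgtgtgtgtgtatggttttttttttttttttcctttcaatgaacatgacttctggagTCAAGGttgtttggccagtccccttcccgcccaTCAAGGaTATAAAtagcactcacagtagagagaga
Cyp8b1, chr9:121916306-121916555, minus strand: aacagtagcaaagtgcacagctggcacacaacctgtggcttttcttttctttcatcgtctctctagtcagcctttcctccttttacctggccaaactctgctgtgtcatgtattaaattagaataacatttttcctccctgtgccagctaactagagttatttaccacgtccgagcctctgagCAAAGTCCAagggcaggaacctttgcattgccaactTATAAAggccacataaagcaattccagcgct
Akr1d1, chr6:37529923-37530172, plus strand: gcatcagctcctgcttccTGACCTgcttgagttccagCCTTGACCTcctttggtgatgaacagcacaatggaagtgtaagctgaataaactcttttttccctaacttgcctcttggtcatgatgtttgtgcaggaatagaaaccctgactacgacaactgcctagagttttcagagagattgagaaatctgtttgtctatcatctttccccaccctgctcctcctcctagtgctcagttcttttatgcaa
The motif TCAAGG, the core of the site bound by monomeric receptors such as the product of Nr5a2, occurred at 2 places in the Nr0b2 promoter, 68 to 63 and 35 to 30 bases before the start, and in 12.5% of 32851 promoters of the same length. Nr0b2 also held the E-box CACGTG, the element bound by CLOCK and its partner, 195 to 190 bases before the start (6.02% of promoters). In Cyp8b1 the HNF4-type motif CAAAGTCCA lay 67 to 59 bases before the start and occurred in 0.384% of promoters. A TATA box (TATAAA, 12.4% of promoters) lay near the start of both Nr0b2 and Cyp8b1. Akr1d1 held the nuclear receptor core AGGTCA (14.0% of promoters) at 2 places on the minus strand, and its TCAAGG match overlapped one of them. AGGTCA also occurred in the promoter of Nr1h4. The inverted repeat of AGGTCA with 1 base between its copies is the form of site that FXR is known to bind. Its exact letters occurred in only 2 of 32851 promoters (0.0061%), and the D-box TTATGTAA in 0.819%. Neither was found in the windows of the 6 genes searched, which do not include Cyp7a1. Variants of these motifs and sites outside the windows were not sought. The missing repeat therefore does not tell whether these genes have an FXR site.

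Libraries held between 29950509 and 45542335 counts, and levels are given, unless stated otherwise, as CPM, which are counts relative to TMM-scaled library size. The factors were 0.753 to 0.824 in Chow and 1.02 to 1.15 in the diet-fed groups. The 9 detected genes had at least 643 counts in every library, so counting error was small beside the spread between mice. Libraries also differed in how many genes had a read among 1752 chemosensory receptor genes (olfactory, vomeronasal and trace amine). Vehicle replicates 1, 2 and 3 and SR9009 replicates 2, 4 and 5 had 150 to 231 of them, and the other 8 libraries had 45 to 105. All Chow libraries fell in the lower class. Vehicle replicate 2 differed most in counts from the other Vehicle livers. Chow replicate 1 had a read in 105 receptor genes, against 45 to 51 in the other Chow livers. Some results, but not all, are also given without these 2 libraries.

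Compared with Chow livers, Vehicle livers had less RNA of the alternative route, of ring reduction, of conjugation and of both FXR and SHP, while the enzyme that opens the classic route did not pass the test. Of the 9 genes tested, 7 fell, none rose and 2 (Cyp7a1 and Cyp8b1) were not called, at an adjusted p under 0.05 from edgeR's quasi-likelihood test. Of all 18181 genes, 25.4% were called lower, 29.8% higher and 55.2% were called in either direction in this comparison. The 9 genes had a median log2 fold change of -1.36, against 0.02 over all genes tested. In 6 of the 9 the libraries of the groups did not overlap, as in 45.4% of all genes. The plot of CPM by group shows each liver.

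**Figure D1:**
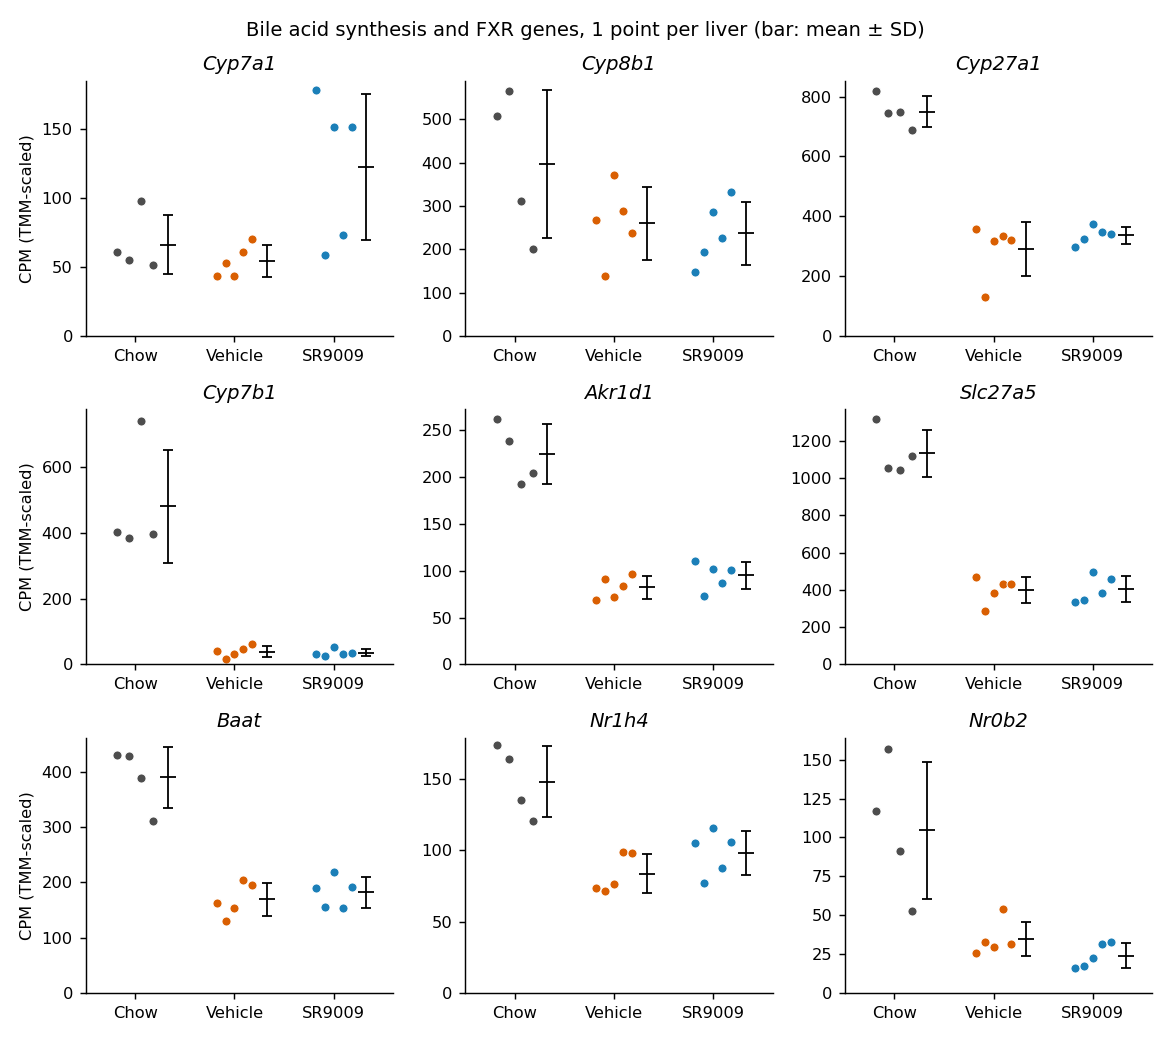
CPM (vertical axes, each from 0, TMM-scaled) of the 9 detected genes in each liver of the Chow (grey), Vehicle (orange) and SR9009 (blue) groups, with the mean ± SD as a bar beside the points. Cyp7b1 lay between 384.8 and 739.2 in Chow and between 15.1 and 63.4 in all 10 diet-fed livers, while Cyp7a1 reached more than 150 in 3 SR9009 livers and in no other.

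Cyp7a1 (ENSMUSG00000028240.3, chromosome 4), the rate-limiting enzyme of the classic route, was at 60.8, 54.8, 97.7 and 51.8 CPM in Chow replicates 1 to 4. In Vehicle replicates 1 to 5 it was at 43.3, 52.8, 43.4, 61.2 and 70.3 CPM. These groups overlapped, with means of 66.3 ± 21.3 CPM (SD, n = 4) and 54.2 ± 11.7 CPM (SD, n = 5). The log2 fold change was -0.29 ± 0.31 (SE; 95% interval -0.97 to 0.38; edgeR adjusted p = 0.456). In SR9009 replicates 1 to 5 Cyp7a1 was at 178.3, 58.6, 151.6, 73.5 and 151.6 CPM. Replicates 1, 3 and 5 were higher than every Chow and Vehicle liver, and replicates 2 and 4 lay within or just above the Vehicle range.

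Against Vehicle the Cyp7a1 mean of 122.7 ± 53.1 CPM (SD, n = 5) in SR9009 was 2.26-fold higher, with a 95% interval of 1.45 to 3.54. This difference did not pass the threshold over all genes in edgeR (adjusted p = 0.213, from an unadjusted value of 0.00162), whereas DESeq2 called it (adjusted p = 0.00304). The adjusted p of the alternatives ran from 0.00304 to 0.553. The difference had the same direction in both receptor-gene classes, with log2 fold changes of 1.33 among the libraries with few and 1.01 among those with many such genes. The Vehicle and SR9009 livers did not overlap within either class. With 2 livers per group in the class with few and 3 in the other, such separation can easily arise by chance. The share of all genes that separate within a class was not counted. None of the 9 genes was called by edgeR in SR9009 versus Vehicle, where 0.242% of all genes were (0.165% higher and 0.077% lower). Cyp7a1 was the only one of them with an unadjusted p under 0.05, which 7.28% of all genes had, and the only one DESeq2 called.

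Against Chow, Cyp7a1 rose 1.85-fold in SR9009 (95% interval 1.15 to 2.98; edgeR adjusted p = 0.0294), and it was the only 1 of the 9 genes to rise in a comparison in which 30.5% of all genes were called higher, 25.7% lower and 56.2% in either direction. This call depended on single libraries. Leaving out Chow replicate 1, 2 or 4 gave an adjusted p of 0.0717, 0.0796 or 0.0837, and leaving out SR9009 replicate 1, 3 or 5 gave 0.0716, 0.0621 or 0.0613. Without Vehicle replicate 2 and Chow replicate 1 together it was 0.0860.

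Cyp8b1 (ENSMUSG00000050445.5, chromosome 9), the sterol 12-alpha-hydroxylase, was at 508.7, 566.2, 311.4 and 200.4 CPM in Chow. Vehicle livers had 266.8, 138.3, 371.1, 287.9 and 237.8 CPM, and SR9009 livers had 148.4, 194.9, 287.2, 225.3 and 331.5 CPM. The ranges of the 3 groups overlapped, and Chow itself spread 2.82-fold between its lowest and highest liver. The log2 fold changes were -0.61 ± 0.33 (SE) in Vehicle versus Chow (edgeR adjusted p = 0.131) and -0.74 ± 0.33 in SR9009 versus Chow (edgeR adjusted p = 0.0674). Chow replicate 4 decided both outcomes, since without it the values were -0.82 (adjusted p = 0.0354) and -0.96 (adjusted p = 0.0166), both then called lower. The second was also called lower when Vehicle replicate 2 (adjusted p = 0.0455) or SR9009 replicate 5 (adjusted p = 0.0407) was left out. Between SR9009 and Vehicle the fold was 0.912, with an interval of 0.576 to 1.44 (edgeR adjusted p = 0.980).

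The alternative route was lower in both diet-fed groups. Cyp27a1 (ENSMUSG00000026170.7, chromosome 1), the mitochondrial sterol 27-hydroxylase, was at 817.4, 745.9, 748.0 and 688.2 CPM in Chow, a narrow range. It was at 356.4, 131.2, 316.3, 332.8 and 319.1 CPM in Vehicle and at 297.2, 323.4, 374.4, 346.9 and 339.7 CPM in SR9009. Every diet-fed liver was below every Chow liver, and Vehicle replicate 2 was far below the rest of its group. Cyp27a1 fell 2.58-fold in Vehicle versus Chow (log2 -1.36 ± 0.20 SE; edgeR adjusted p = 4.26e-05) and 2.23-fold in SR9009 versus Chow (edgeR adjusted p = 0.000183). SR9009 and Vehicle differed by 1.16-fold with an interval of 0.869 to 1.53 (edgeR adjusted p = 0.914). On the log2 scale this was 0.21, and it ranged from 0.02 to 0.29 when 1 library was left out.

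Cyp7b1 (ENSMUSG00000039519.7, chromosome 3), the oxysterol 7-alpha-hydroxylase, showed the largest difference among the 9 genes. Chow livers had 402.7, 384.8, 739.2 and 396.4 CPM. Vehicle livers had 40.9, 15.1, 31.3, 45.9 and 63.4 CPM, and SR9009 livers had 32.9, 26.9, 54.4, 32.3 and 34.3 CPM. The lowest Chow liver was thus well above the highest diet-fed liver. Cyp7b1 fell 12.2-fold in Vehicle (log2 -3.61 ± 0.36 SE; edgeR adjusted p = 2.18e-06) and 13.3-fold in SR9009 (log2 -3.73 ± 0.37 SE; edgeR adjusted p = 1.60e-06), both against Chow. Between the diet-fed groups the fold was 0.919 (interval 0.567 to 1.49; edgeR adjusted p = 0.987). Cyp7b1 is known as a male-biased liver gene. A list of 10 other male-biased liver genes includes Cyp2u1, Elovl3 and Hsd3b5. All 10 were also called lower in Vehicle versus Chow, as were 25.4% of all genes. Their median log2 fold change was -3.25. Their summed level was 8748 to 15780 CPM in Chow, 993.7 to 6050 in Vehicle and 2253 to 5492 in SR9009, and its part in the Cyp7b1 result was not tested. In SR9009 versus Vehicle none of the 10 was called by edgeR or DESeq2. An unadjusted p under 0.05 was found for 4 of them, and for 7.28% of all genes.

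Of the ring-modifying enzymes, Akr1d1 (ENSMUSG00000038641.13, chromosome 6), the delta4-3-oxosteroid 5-beta-reductase, was at 262.1, 238.4, 192.8 and 204.2 CPM in Chow. It was at 68.3, 91.5, 71.8, 83.8 and 96.1 CPM in Vehicle and at 110.6, 73.5, 101.8, 87.3 and 101.0 CPM in SR9009. The diet-fed livers all lay below Chow, and the SR9009 and Vehicle ranges overlapped. Akr1d1 fell 2.73-fold in Vehicle (edgeR adjusted p = 2.61e-07) and 2.37-fold in SR9009 (edgeR adjusted p = 1.10e-06) against Chow. SR9009 versus Vehicle gave a fold of 1.15 with an interval of 0.959 to 1.38 (edgeR adjusted p = 0.807).

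Hsd3b7 (ENSMUSG00000042289.12, chromosome 7), the enzyme before AKR1D1 in the pathway, is listed at 0 in all 14 libraries. In the GENCODE M21 annotation 1717 of its 2769 exon bases (62.0%) lie inside exons of Gm49388 on the same strand, and that gene is listed at 0 throughout as well. Of 402 protein-coding genes with at least 50% of their exon bases inside another gene's exons on the same strand, 204 (50.7%) were listed at 0 in every library. The share was 15.2% (3177 of 20915) where under 10% was shared. The sources used here do not give how the authors counted reads in overlapping genes, and the level of Hsd3b7 is unmeasured.

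The conjugating enzymes were lower in the diet-fed livers as well. Slc27a5 (ENSMUSG00000030382.16, chromosome 7), the bile acyl-CoA synthetase, was at 1317, 1056, 1043 and 1119 CPM in Chow. In Vehicle it was at 467.7, 284.5, 384.8, 431.9 and 433.4 CPM, and in SR9009 at 337.9, 344.5, 495.2, 381.7 and 458.5 CPM. Baat (ENSMUSG00000039653.10, chromosome 4), which joins the activated bile acid to an amino acid, was at 430.4, 428.6, 389.8 and 311.7 CPM in Chow. It was at 162.1, 130.5, 153.4, 203.8 and 195.9 CPM in Vehicle and at 190.0, 154.9, 219.4, 152.9 and 192.3 CPM in SR9009. For both genes all 10 diet-fed livers were below all 4 Chow livers. Slc27a5 fell 2.83-fold in Vehicle (edgeR adjusted p = 5.47e-07) and 2.81-fold in SR9009 (edgeR adjusted p = 5.61e-07) against Chow. Baat fell 2.31-fold (edgeR adjusted p = 3.76e-06) and 2.14-fold (edgeR adjusted p = 8.65e-06). For SR9009 against Vehicle the 95% intervals of the fold were 0.821 to 1.24 for Slc27a5 and 0.881 to 1.31 for Baat (edgeR adjusted p = 0.995 and 0.949).

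Both control genes fell against Chow. Nr1h4 (ENSMUSG00000047638.16, chromosome 10), which encodes FXR, was at 173.7, 163.8, 135.3 and 120.3 CPM in Chow. It was at 73.4, 71.8, 76.1, 99.0 and 97.9 CPM in Vehicle and at 105.5, 77.4, 115.8, 87.8 and 105.6 CPM in SR9009. The highest diet-fed liver, SR9009 replicate 3, came close to the lowest Chow liver without reaching it. Nr1h4 fell 1.77-fold in Vehicle (edgeR adjusted p = 0.000131) and 1.51-fold in SR9009 (edgeR adjusted p = 0.00209) against Chow. The fold of SR9009 to Vehicle was 1.18, with an interval of 0.966 to 1.43 (edgeR adjusted p = 0.782).

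Nr0b2 (ENSMUSG00000037583.3, chromosome 4), which encodes SHP and whose promoter is printed above, was at 116.9, 157.0, 91.3 and 52.8 CPM in Chow. It was at 25.9, 32.7, 29.4, 53.9 and 31.3 CPM in Vehicle and at 15.8, 17.5, 22.2, 31.8 and 32.98 CPM in SR9009. Vehicle overlapped Chow only through Vehicle replicate 4, which was just above Chow replicate 4, and no SR9009 liver reached the Chow range. Nr0b2 fell 3.02-fold in Vehicle (log2 -1.59 ± 0.32 SE; edgeR adjusted p = 0.000736) and 4.35-fold in SR9009 (log2 -2.12 ± 0.32 SE; edgeR adjusted p = 7.81e-05) against Chow. Within the libraries with few receptor genes, which leave 2 Vehicle livers, the first value was -1.29 and no longer called (adjusted p = 0.0835). SR9009 versus Vehicle gave a fold of 0.694 with an interval of 0.443 to 1.09 (edgeR adjusted p = 0.786), so a difference was not resolved in either direction. That log2 fold change was -0.53, and it was -0.31 without Vehicle replicate 4. Its size differed between the receptor-gene classes, but this difference was not tested. Among the libraries with few such genes it was -1.17, with means of 42.6 CPM in 2 Vehicle and 19.0 CPM in 2 SR9009 livers. Vehicle replicate 4 was 1 of these 2 Vehicle livers. The livers did not overlap there, which can easily arise by chance with 2 per group. Among the libraries with many such genes it was -0.12, with means of 29.3 and 27.4 CPM and overlapping livers. Neither was called. The comparisons share groups: Vehicle and SR9009 are each set against the same 4 Chow livers, and their falls are not independent of each other.

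**Figure D2:**
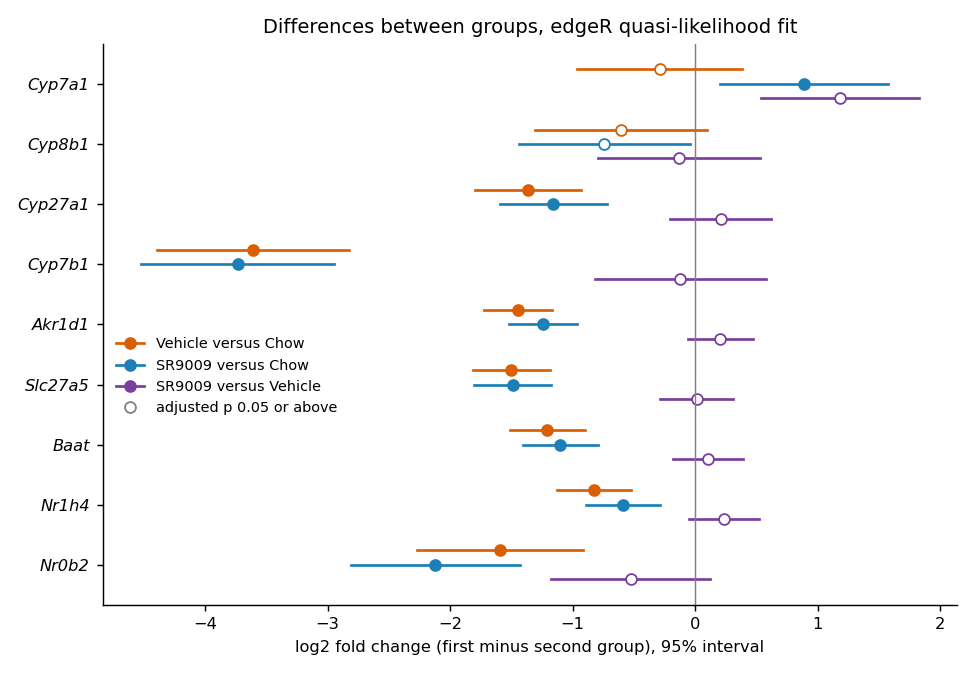
Log2 fold change (horizontal axis, first minus second group) with its 95% interval for each tested gene in Vehicle versus Chow, SR9009 versus Chow and SR9009 versus Vehicle, where filled points have an adjusted p under 0.05. The 2 comparisons with Chow lie left of 0 for every gene except Cyp7a1 in SR9009, and all points of SR9009 versus Vehicle are open.

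In SR9009 versus Chow, 7 of the 9 genes fell, 1 rose and 1 (Cyp8b1) was not called, and 7 did not overlap between groups, as did 46.5% of all genes. In SR9009 versus Vehicle, 6 log2 fold changes were positive and 3 negative with a median of 0.10, and none of the 9 genes was free of overlap, against 1.87% of all genes.

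Set per base of exon (RPKM from TMM-scaled CPM and the summed exon length in GENCODE M21), Slc27a5 was highest of the 9 genes in all 3 groups, at 465 ± 52.0 RPKM in Chow, 164 ± 29.2 in Vehicle and 166 ± 28.8 in SR9009 (SD). Cyp27a1 came next in each group, at 345 ± 24.3, 134 ± 41.8 and 155 ± 13.2 RPKM. In Vehicle and SR9009 these neighbours lay within their spread, and Cyp8b1 at 134 ± 43.3 RPKM in Vehicle could not be ordered against Cyp27a1. Cyp7b1 held rank 3 in Chow at 222 ± 79.6 RPKM, within the spread of Cyp8b1 (203 ± 87.4) and Baat (201 ± 28.6). It was at rank 8 in Vehicle (18.2 ± 8.25 RPKM) and at rank 9 in SR9009 (16.7 ± 4.89 RPKM). Cyp7a1 was lowest in Chow and Vehicle, at 15.9 ± 5.10 and 13.0 ± 2.80 RPKM, and stood at 29.4 ± 12.7 RPKM (rank 7) in SR9009.

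Cyp7a1, Cyp8b1, Cyp7b1 and Nr0b2 had a coefficient of variation of CPM between mice of 21.6% or more in every group. The coefficient of variation of Cyp7a1 CPM was 32.1% in Chow, 21.6% in Vehicle and 43.3% in SR9009. That of Nr0b2 was 41.9%, 31.9% and 33.1%. Akr1d1, Baat, Slc27a5 and Nr1h4 stayed between 11.2% and 18.0% in every group. Cyp27a1 varied by 7.05% in Chow and 8.50% in SR9009 but by 31.2% in Vehicle, where replicate 2 was low.

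Ratios of counts taken within each liver do not depend on library scaling, and 4 were compared by exact two-sided permutation tests, with Benjamini-Hochberg adjustment over the 12 values (4 ratios in 3 comparisons). The smallest exact p that any of these comparisons allows is 0.00794. Counts are not corrected for exon length, so the sign of a ratio does not tell which gene had more RNA. The log2 ratio of Cyp8b1 to Cyp7a1, the enzyme of the cholic acid branch to that of the first step, was 2.51 ± 0.83 in Chow (SD, n = 4), 2.22 ± 0.68 in Vehicle (n = 5) and 1.03 ± 0.80 in SR9009 (n = 5). SR9009 replicate 1 alone had more Cyp7a1 than Cyp8b1 counts, at -0.26. The SR9009 mean was lower than Vehicle by a log2 difference of -1.19 (exact permutation p = 0.0317, adjusted 0.0423) and lower than Chow by -1.49 (exact p = 0.0238, adjusted 0.0423). Vehicle and Chow differed by -0.29 (exact p = 0.571, adjusted 0.571).

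The log2 ratio of Cyp7b1 to Cyp7a1, alternative to classic 7-alpha-hydroxylase, was 2.85 ± 0.10 in Chow, where 4 livers lay between 2.73 and 2.94. It was -0.58 ± 0.70 in Vehicle and -1.67 ± 0.59 in SR9009. Counts of Cyp7b1 therefore exceeded those of Cyp7a1 in every Chow liver and were below them in every diet-fed liver. Cyp7a1 has 4174 exon bases and Cyp7b1 has 2166. Per base of exon, the Vehicle mean of Cyp7b1 was still above that of Cyp7a1 (18.2 ± 8.25 against 13.0 ± 2.80 RPKM), within their spread. In SR9009 it was below (16.7 ± 4.89 against 29.4 ± 12.7 RPKM). The differences were -3.43 for Vehicle minus Chow (exact p = 0.00794, adjusted 0.0317), -4.52 for SR9009 minus Chow (exact p = 0.00794, adjusted 0.0317) and -1.09 for SR9009 minus Vehicle (exact p = 0.0317, adjusted 0.0423). For Cyp27a1 to Cyp7a1 the means were 3.55 ± 0.41, 2.37 ± 0.68 and 1.58 ± 0.74 in Chow, Vehicle and SR9009. SR9009 minus Vehicle was -0.79 (exact p = 0.127, adjusted 0.139), and the differences from Chow were -1.18 and -1.96 (both adjusted exact p = 0.0423). These 3 ratios share Cyp7a1 as their denominator and are not independent.

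The log2 ratio of Nr0b2 to Nr1h4, SHP to the receptor that induces it, was -0.60 ± 0.46 in Chow, -1.31 ± 0.30 in Vehicle and -2.08 ± 0.52 in SR9009. The differences were -0.71 for Vehicle minus Chow (exact p = 0.0397, adjusted 0.0476), -0.78 for SR9009 minus Vehicle (exact p = 0.0317, adjusted 0.0423) and -1.48 for SR9009 minus Chow (exact p = 0.00794, adjusted 0.0317). Of the 12 ratio differences, 10 passed after adjustment, and none turned direction when a library was left out. The ratios were chosen with earlier results of these data known, and the adjustment does not cover that choice. Against Chow, leaving out a library raises the smallest exact p that a test can give, to 0.0179 for 3 Chow livers against 5 and to 0.0286 for 4 against 4. Calls lost there say little about the stability of the ratios. In SR9009 versus Vehicle the smallest exact p stays at 0.00794 for 4 livers against 5, but the adjustment still runs over all 12 values. There the calls were lost in 11 of 14 runs for Cyp8b1 to Cyp7a1 and for Cyp7b1 to Cyp7a1. For Nr0b2 to Nr1h4 they were lost in 12. The runs include those without a Chow library, which leave the exact p of SR9009 versus Vehicle unchanged and act only through the adjustment. These calls, each at an adjusted p of 0.0423 in the exact permutation test, lay close to the threshold. The losses do not by themselves tell whether a call rested on a single liver. All 10 calls were lost without Chow replicate 1, 2 or 4 or SR9009 replicate 1, 3 or 5. Without Vehicle replicate 1, 3, 4 or 5 or SR9009 replicate 4, 8 were lost, and 3, 2 and 1 were lost without Vehicle replicate 2, SR9009 replicate 2 and Chow replicate 3. The differences themselves ranged from -3.56 to -3.13 for Cyp7b1 to Cyp7a1 in Vehicle minus Chow. In SR9009 minus Vehicle they ranged from -1.40 to -0.87 for Cyp8b1 to Cyp7a1 and from -1.39 to -0.90 for Cyp7b1 to Cyp7a1. For Nr0b2 to Nr1h4 the range there was -0.93 to -0.61.

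**Figure D3:**
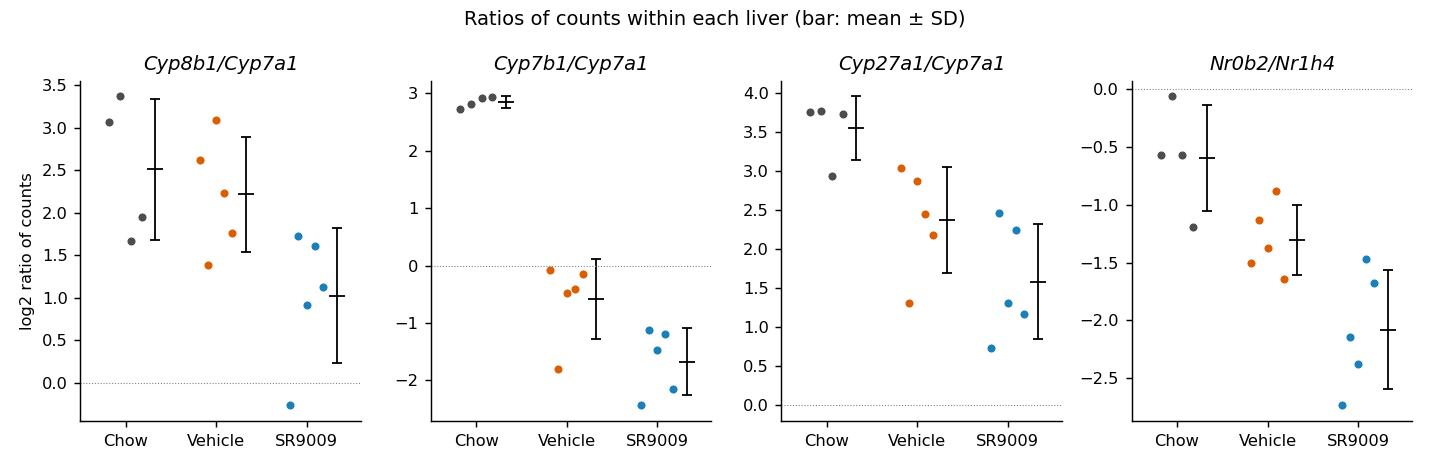
Log2 ratio of the counts of 2 genes within each liver (vertical axes, each panel on its own scale) in Chow, Vehicle and SR9009, with the mean ± SD as a bar and a dotted line at 0, where counts are equal. The Cyp7b1/Cyp7a1 ratio of the 4 Chow livers lies between 2.73 and 2.94, and all 10 diet-fed livers lie below 0. Counts are not corrected for exon length, so 0 does not mark equal RNA levels.

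Across the 10 diet-fed livers, no relation between SHP RNA and its target genes, or between the 2 targets, passed a permutation test. Log2 CPM of Cyp7a1 and Nr0b2 had Pearson r = -0.359 (permutation p = 0.307, adjusted 0.460 over 3 pairs) and Spearman rho = -0.0788 (permutation p = 0.839, adjusted 0.839). Cyp8b1 and Nr0b2 had r = 0.408 (permutation p = 0.243, adjusted 0.460) and rho = 0.333 (permutation p = 0.345, adjusted 0.839). Cyp7a1 and Cyp8b1 had r = -0.0941 (permutation p = 0.792, adjusted 0.792) and rho = -0.0788 (permutation p = 0.837, adjusted 0.839). Without the 2 livers farthest from the median of the first gene, r was -0.195, 0.402 and 0.0610. Within the 6 livers with many receptor genes r was 0.316, 0.160 and 0.215 (exact permutation p = 0.488, 0.758 and 0.682), and the class with few held too few diet-fed livers.

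With each group's mean removed, members were also compared over all 14 livers, as a description without a test. Baat and Nr1h4 had the highest r of all pairs, 0.928, followed by Cyp27a1 with Slc27a5 (0.797) and Akr1d1 with Nr1h4 (0.765), whereas Cyp7a1 and Cyp8b1 had -0.0124. For the genes that SHP represses, r with Nr0b2 was 0.656 for Cyp8b1 and 0.0776 for Cyp7a1 over these 14 livers, and 0.406 and 0.0957 over the 10 diet-fed ones. By the same measure, over 12281 named genes with a mean log2 CPM of at least 0, the genes most like Cyp7a1 were Ugt1a9 (r = 0.949), Utp14b (0.915) and Nek6 (0.906). Those most like Cyp8b1 were Ppp2r5a (0.955), Stard5 (0.929) and Lrfn3 (0.897). Cyp7b1 was most like the complement genes C6 (0.982) and C8b (0.941) and Ankrd33b (0.940), and Nr0b2 was most like Wdr74 (0.952), Bloc1s3 (0.900) and Actr1b (0.893). The high r values were picked by a search over many genes with 14 livers. Both genes of a pair were read from the same libraries and share their depth.

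The other genes of bile acid handling were counted by list. Of all genes tested, 25.4% were called lower and 29.8% higher in Vehicle versus Chow. In SR9009 versus Chow these shares were 25.7% and 30.5%. In SR9009 versus Vehicle 7.28% of all genes had an unadjusted p under 0.05. Of 14 further enzymes of side-chain shortening and sterol hydroxylation, 12 fell and 2 rose in Vehicle versus Chow, with a median log2 fold change of -0.73, and the same counts held in SR9009 versus Chow. Abcd3, the peroxisomal transporter of bile acid precursors, fell from 885 ± 71.9 to 342 ± 28.8 CPM in Vehicle (edgeR adjusted p = 5.65e-08), and Scp2, the peroxisomal thiolase, fell by 1.14 on the log2 scale (adjusted p = 1.29e-06). Cyp39a1, another oxysterol 7-alpha-hydroxylase, rose from 16.0 ± 2.90 to 45.0 ± 9.68 CPM (edgeR adjusted p = 3.15e-06) and was at 45.1 ± 6.92 CPM in SR9009. Cyp39a1 and Cyp7b1, both of which act on oxysterols, thus changed in opposite directions against Chow. The other gene that rose, Ch25h, had only 0 to 2 counts in Chow libraries and 14 to 30 in Vehicle. Cyp2c70, which makes muricholic acids and was chosen here after its values were seen, fell by 2.14 on the log2 scale in Vehicle (edgeR adjusted p = 1.47e-05). In SR9009 versus Vehicle none of the 14 was called by edgeR, DESeq2 or limma-voom, and 3 had an unadjusted p under 0.05.

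Among 18 receptors and transcription factors of these genes, 11 fell and 1 rose in Vehicle versus Chow (median -0.52), and 11 fell and 2 rose in SR9009 versus Chow. Klb, the co-receptor of the intestinal hormone FGF15, fell from 34.8 ± 5.13 to 16.9 ± 2.31 CPM in Vehicle (edgeR adjusted p = 3.22e-06). Nr1i2, encoding the pregnane X receptor, fell by 0.64 on the log2 scale (edgeR adjusted p = 7.31e-06) and Nr5a2 by 0.61 (edgeR adjusted p = 3.36e-05). In SR9009 versus Vehicle none of the 18 was called by edgeR, and 4 had an unadjusted p under 0.05. Groups did not overlap there for 2 of them, against 1.87% of all genes. These 2 were clock-controlled factors named here after their values were seen. DESeq2 called both, whereas limma-voom called only Dbp. Dbp, an activator known to act on Cyp7a1, was at 50.2, 36.6, 72.7, 57.2 and 55.3 CPM in SR9009 and at 22.9, 17.2, 8.16, 12.5 and 23.5 CPM in Vehicle (edgeR adjusted p = 0.0537). Nfil3, which binds the same D-box element as a repressor, was at 7.72, 17.6, 13.4, 14.2 and 12.2 CPM in SR9009 and at 22.2, 27.7, 29.0, 29.1 and 21.8 CPM in Vehicle (edgeR adjusted p = 0.245).

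Genes known to be induced by FXR did not follow one direction. Of 12 listed, 10 were tested, and 4 fell and 1 rose in Vehicle versus Chow (median -0.35), with the same counts in SR9009 versus Chow. Abcb11, the bile salt export pump, fell from 1042 ± 68.4 to 422 ± 48.2 CPM in Vehicle (edgeR adjusted p = 1.45e-07), and Fetub fell by 0.74 on the log2 scale (edgeR adjusted p = 0.000301). Abcb4, the phospholipid transporter of the same membrane, rose from 337 ± 23.5 to 508 ± 65.2 CPM (edgeR adjusted p = 0.000119). Slc51a and Fgf15 were below the filter, with at most 5 and 2 counts in a library. In SR9009 versus Vehicle none of the 10 was called by edgeR, DESeq2 or limma-voom, although 5 had an unadjusted p under 0.05.

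Of 9 transporters of bile salts and sterols, 6 fell and 1 rose in Vehicle versus Chow (median -1.02) and in SR9009 versus Chow. Slc10a1, the sodium-dependent uptake carrier, fell from 727 ± 104 to 181 ± 38.7 CPM in Vehicle (edgeR adjusted p = 1.58e-07). Atp8b1, a phospholipid flippase, fell by 0.89 (edgeR adjusted p = 5.08e-06) and Abcg5, a subunit of the sterol exporter, by 1.17 on the log2 scale (edgeR adjusted p = 1.88e-05). The transporter that rose was Abcc4, an export pump of the sinusoidal membrane, at 3.25 ± 1.13 CPM in Chow, 14.1 ± 5.76 in Vehicle (edgeR adjusted p = 3.34e-05) and 30.9 ± 7.14 in SR9009 (edgeR adjusted p = 8.23e-07 against Chow, 0.122 against Vehicle). None of the 9 was called by edgeR in SR9009 versus Vehicle, 4 had an unadjusted p under 0.05, and DESeq2 called 2 of them higher, Abcc3 and Abcc4, of which limma-voom called Abcc4.

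**Figure D4:**
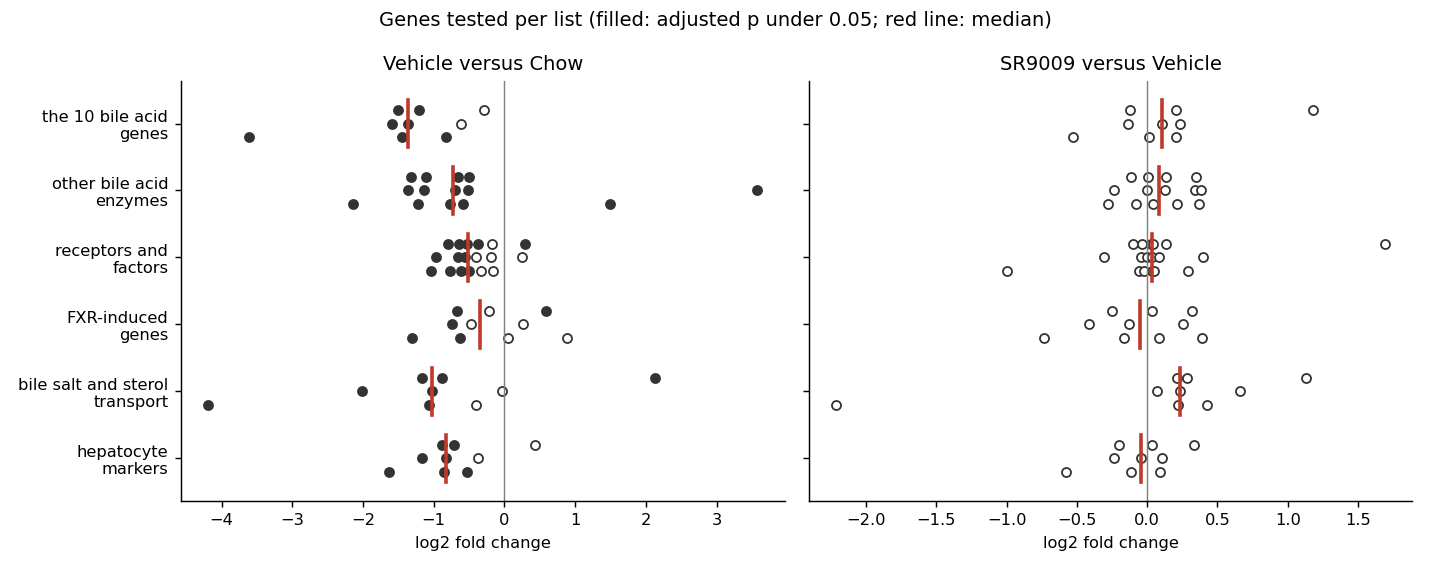
Log2 fold change (horizontal axes, scaled separately) of each tested gene in the bile acid set and in 5 other lists, for Vehicle versus Chow and SR9009 versus Vehicle, with filled points for an adjusted p under 0.05 and a red line at the list median. In Vehicle versus Chow the medians run from -1.36 for the bile acid genes to -0.35 for FXR-induced genes, and in SR9009 versus Vehicle no point is filled.

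Cell type markers moved with the falls against Chow, in a comparison of Vehicle with Chow where 25.4% of all genes were lower and 29.8% higher. Of 9 hepatocyte markers with a row, 7 were lower in Vehicle versus Chow (median -0.83), and their summed level was 102294 to 140603 CPM in Chow, 76453 to 85056 in Vehicle and 66822 to 85444 in SR9009. All 10 cholangiocyte markers were higher in Vehicle (summed 52.0 to 86.5 CPM in Chow against 426 to 1002), as were 7 of 10 macrophage markers (161 to 538 against 1700 to 2626, with 1 lower) and 9 of 10 stellate cell and fibroblast markers (260 to 359 against 1076 to 1442). Of 10 periportal hepatocyte markers 7 were lower and 1 higher, and of 10 pericentral ones 1 was lower and 4 higher. In bulk tissue fewer hepatocytes and less RNA per hepatocyte cannot be told apart, and the part of these markers in the falls was not tested. Summed hepatocyte, cholangiocyte, macrophage and stellate cell markers overlapped between SR9009 and Vehicle, and none of those lists held a gene called there by edgeR, DESeq2 or limma-voom. No marker of these 4 lists was at 0 in every library of a group. The zonal lists did hold calls in SR9009 versus Vehicle. The pericentral gene Cyp1a2, a drug-metabolizing enzyme, rose from 449 ± 179 to 1227 ± 130 CPM (edgeR adjusted p = 0.0373). DESeq2 and limma-voom also called the pericentral gene Oat, at 996 ± 233 CPM in Vehicle and 571 ± 144 in SR9009 (edgeR adjusted p = 0.113). DESeq2 alone called the periportal gene Pck1, at 1601 ± 440 and 925 ± 140 CPM (edgeR adjusted p = 0.225). Oat and Pck1 were named after their values were seen. Summed mesothelial markers were 19.6 to 61.1 CPM in Vehicle and 25.6 to 110 in SR9009, and their part in the Cyp7a1 difference was not tested.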

How the data were processed

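Liver RNA-seq is described for 15 samples, of which 14 were analysed (4 Chow, 5 Vehicle, 5 SR9009). Chow replicate 5 is not analysed here. The deposited table holds raw, whole-number read counts per Ensembl gene, per the file headers and values. The submitters' processing notes name STAR 2.7.11b as aligner and GRCm39 as build. No source used here names the counting tool, annotation release or strand setting, so overlapping genes are uncertain. Symbols, taken from a reference table, matched 51880 identifiers (90.8%) with 99.6% of the counts.

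Counts of all groups entered 1 robust quasi-likelihood fit in edgeR 4.0.16 (R 4.3.3), with TMM factors and filterByExpr (minimum count 10, minimum total 15), which kept 18181 genes and 99.9% of counts. The Benjamini-Hochberg adjustment ran over all of them, with a threshold of 0.05. Log2 CPM used a prior count of 2, and ratios added 0.5 to each count. Correlations used 100000 permutations, and exact ones in 6 livers (scipy 1.17.1). Exon lengths came from GENCODE M21 (GRCm38) and promoters from RefSeq. Each of 26 pairs of libraries of 1 group differed beyond counting noise (mean chi-square per gene at least 15.7). The fit was tested on simulated counts. Where the labels do not say that samples are separate mice, p-values measure only the spread between them.

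The 10 genes, all lists and the 4 ratios were chosen with earlier results of these data known. The text names all 10, up to 3 called genes of a described list by adjusted p, list genes below the filter, and the 3 genes most like each of 4 members. Of the hepatocyte markers 1 symbol found no row. Alternatives were DESeq2 1.42.0, limma-voom (limma 3.58.1), DESeq2 size factors in edgeR, no filter or a stricter one, a fit of 2 groups alone, a replicate block, the receptor-gene class, and leaving out each library. Leaving out Vehicle replicate 2 and Chow replicate 1 together was added after seeing the data.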

Additional observations from a re-analysis of the deposited data

Results flagged for a closer look

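In 39 groups of 4 or 5 values (each detected gene and each ratio in each group), the highest or lowest liver was tested for lying far from the rest, and 6 did; chance gives about 1 in 20. Cyp27a1 was low in Vehicle replicate 2, at 131.2 CPM. The same liver had the lowest log2 ratio of Cyp7b1 to Cyp7a1 in Vehicle, -1.80. Cyp7b1 was high in Chow replicate 3, at 739.2 CPM, and in SR9009 replicate 3, at 54.4 CPM. Chow replicate 3 also had the lowest log2 ratio of Cyp27a1 to Cyp7a1 in Chow, 2.94, and the highest Cyp7a1 of that group. Nr0b2 was high in Vehicle replicate 4, at 53.9 CPM.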

How the results depend on the processing

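The counts of bile acid genes called ranged from 6 to 8 in Vehicle versus Chow and from 7 to 9 in SR9009 versus Chow over the alternatives (7 to 8 and 7 to 9 when a library was left out). In SR9009 versus Vehicle the count was 0 under every alternative except DESeq2, which gave 1, Cyp7a1. Over all genes, SR9009 versus Vehicle had 44 calls in edgeR, 198 in DESeq2, 15 with the replicate block, 78 with the receptor-gene class as a term, 66 with limma-voom, and 18 to 56 when a library was left out. Fold changes that turned direction were called in neither fit and were near 0 once turned. For Slc27a5 in SR9009 versus Vehicle these were -0.033 (limma-voom), -0.054 (few receptor genes), -0.092 (without 2 libraries together) and, with 1 library left out, values within -0.090 to 0.073. In that comparison Cyp7b1 gave 0.083 (many receptor genes) and, with 1 library left out, -0.33 to 0.12, turning without Vehicle replicate 5. Cyp8b1 gave -0.29 to 0.029 with 1 library left out, turning without Vehicle replicate 3. Cyp7a1 gave 0.082 in Vehicle versus Chow with the class as a term, against -0.29 in the main fit, and all Chow libraries are in 1 class. Cyp7a1 in SR9009 versus Chow lost its call under 11 of 24 alternatives, with values of 0.64 to 0.91 and adjusted p up to 0.0930. Cyp8b1 in SR9009 versus Chow was called by DESeq2 (adjusted p = 0.0477). The cause of these changes was not tested. The replicate numbers did not pair the mice: 3 of 13 pairs of same-numbered livers had a correlation of deviations over 0.1, the range was -0.36 to 0.20, and 4 of 26 comparisons had their own number as the best match. With the replicate block 7 bile acid genes were called in each comparison with Chow and 0 between the diet-fed groups.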
